A study of Mus musculus with 18 samples.

Results

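Gastrokines, trefoil factors and gel-forming mucins are secreted together by the surface and neck mucous cells of the stomach. The 10 genes described here were named by symbol: the gastrokines Gkn1, Gkn2 and Gkn3, the trefoil factors Tff1 and Tff2, the mucins Muc1, Muc5ac and Muc5b, and the secretory cell genes Agr2 and Olfm4. The set was chosen with earlier results of these data known. All 10 are among the 24493 gene symbols of the table, and each of the 10 averaged 1 TPM or more. They were measured by RNA sequencing in 2 mouse pancreatic tumor lines of strain C57BL/6, 6419c5 and 6694c2, whose cells had been implanted under the skin, left untreated and sorted from the tumors. Each line had a WT group and 2 groups with a knockout of Kdm3a, called clone A and clone B here, and each of the 6 groups had 3 libraries. Kdm3a encodes a demethylase of lysine 9 of histone H3, and WT carried no other named change. Each knockout group is 1 clone, so a difference from WT belongs to that clone and the clones are the units in which a knockout was made. The labels leave unstated how the gene was knocked out, which marker the sort used and whether each library had an animal of its own. The p-values therefore measure only the spread between these libraries, which may be technical.

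Gastrokines are small secreted proteins with a BRICHOS domain, made almost exclusively by the gastric epithelium. Trefoil factors are compact peptides that bind mucus and take part in the repair of injured epithelium, with TFF1 made by surface mucous cells and TFF2 by neck cells and deep glands, while MUC5AC is the gel-forming mucin of the gastric surface. The normal pancreas makes little of any of them, and their appearance in premalignant pancreatic lesions and in better differentiated pancreatic cancers is called a gastric-type or foveolar program.

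The targeted gene Kdm3a still gave a transcript in every library: 12.3 to 24.6 TPM in the knockout libraries of 6419c5 against 24.1 to 38.2 TPM in WT, and 25.2 to 30.2 TPM in those of 6694c2 against 38.9 to 67.6 TPM. It was lower than in WT in 6419c5 clone B and in both clones of 6694c2 (limma, Benjamini-Hochberg adjusted p = 0.00306, 0.0172 and 0.0278), and in clone A of 6419c5 the change was -0.45 (adjusted p = 0.299). All libraries expressed tumor epithelial keratins, with 5461 to 12248 TPM summed over 7 epithelial markers. The mean log2(TPM + 1) of these markers was 9.65, 9.35 and 8.78 for WT and clones A and B of 6419c5 and 8.52, 7.79 and 7.65 for those of 6694c2. Over the clones 3 of the 7 fell and none rose in each line, and Epcam, an epithelial adhesion molecule, fell in both (-2.02, adjusted p = 1.55e-04, and -3.03, adjusted p = 9.97e-07). The acid and enzyme genes of the gastric gland were scarce: Gif was listed at 0 in every library, Lipf and Atp4b had group means of at most 0.0644 TPM, and of the 6 genes of that list only Pgc, at up to 34.1 TPM, had a group mean above 2 TPM. Markers of other cell types were detected too. The summed level of 10 macrophage markers, led by Lyz2 and C1qa, ran from 295 to 8431 TPM, and 3 libraries stood apart from their groups on such markers: clone B replicate 3 and clone A replicate 1 of 6694c2, and WT replicate 3 of 6419c5. These 3 were named without a fixed cutoff. Macrophage sums spread within other groups too, from 295 to 1887 TPM in WT 6694c2 and from 2494 to 8431 TPM in clone A of 6419c5. Depth is unknown because the table holds TPM only, and fewer cells expressing a gene and less RNA per cell cannot be told apart in bulk RNA.

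The knockout clones of 6419c5 held less of most of the 10 genes than WT, and those of 6694c2 more of some. In 6419c5 clone A 6 of the 10 genes fell and none rose (Agr2, Gkn1, Gkn3, Olfm4, Tff1 and Tff2), where 1.65% of the 13422 tested genes fell and 3.14% rose. In 6419c5 clone B 6 fell and none rose (Agr2, Gkn1, Gkn3, Muc1, Olfm4 and Tff2), against 11% of all tested genes that fell and 7.97% that rose. At an unadjusted p under 0.05 none of the 10 rose in clone A and 1 rose in clone B. In 6694c2 clone A 4 rose (Gkn1, Gkn2, Muc5b and Olfm4) and Muc1 fell, where 14.7% of tested genes rose and 7.01% fell. In 6694c2 clone B 3 rose (Muc5ac, Muc5b and Olfm4) and Muc1 fell, where 10.6% rose and 3.94% fell. Both clones of a line were compared with the same WT libraries. Because the set was chosen with earlier results known, the shares of all tested genes describe these counts and do not test them. The median change of the 10 genes was -2.05 and -1.87 for clones A and B of 6419c5, and 0.90 and 0.60 for clones A and B of 6694c2, against medians of 0.05, 0.00, 0.11 and 0.18 over all tested genes. Changes are differences of log2(TPM + 1), a scale on which changes of scarce transcripts come out too small, and a gene is called at an adjusted p under 0.05 in limma. The count for 6694c2 clone A dropped from 5 to 3 without WT replicate 3 or without clone A replicate 1. Without clone A replicate 1, Gkn1, Gkn2 and Muc5b lost their calls (adjusted p = 0.0822, 0.101 and 0.0797), and Tff2 was called lower (-0.99, adjusted p = 0.00835). Of the genes that rose in this clone, only Olfm4 was then still called.

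Markers of other cell types moved with these groups. In 6419c5 clone B all 10 macrophage markers fell (median -3.14), with sums of 377 to 603 TPM against 1457 to 7791 TPM in WT. In clone A none of the 10 was called (2494 to 8431 TPM), while 4 of 4 tested skeletal muscle markers rose, with sums of 16.2 to 74.6 TPM against 4.46 to 9.6 TPM in WT. Fibroblast sums in clone A were 1034 to 1063 TPM against 313 to 624 TPM in WT, with limma calling none of 9 tested markers (4 higher at an unadjusted p under 0.05). In 6694c2 clone A 8 of 10 macrophage, 8 of 9 fibroblast, 6 of 7 endothelial and 5 of 7 neutrophil markers that were tested rose, and of these lists only 1 neutrophil marker was called in clone B. The number of epithelial markers that fell was 1 for clone A and 3 for clone B of 6419c5, and 3 for clone A and 2 for clone B of 6694c2. With the macrophage index, the mean log2(TPM + 1) of the 10 macrophage markers, as a covariate 7 of the 10 genes were called in 6419c5 clone A and 6 in clone B. In 6694c2 clone A the covariate left 3 calls in place of 5. Gkn1 (0.69, limma adjusted p = 0.269) and Gkn2 (0.88, adjusted p = 0.401) lost theirs, and the calls of 6694c2 clone B did not change. The index did not overlap between clone B (3.93 to 4.69) and either WT (6.10 to 8.52) or clone A (7.01 to 8.83) of 6419c5. Nor did it overlap between WT (3.64 to 6.57) and clone A (7.43 to 8.02) of 6694c2. The slope of the covariate came from spread within groups, so its values for these contrasts are extrapolations. They cannot separate clone from macrophage level. The part of the other marker lists in these counts was not tested.

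Read as ranges, without a test, all 3 clone libraries lay below all 3 WT libraries for 9 of the 10 genes in 6419c5 clone A (5.82% of tested genes did so, and 13.1% lay above) and for 7 in clone B, with 1 above (20.3% below and 15.8% above). In 6694c2 5 genes lay above and 1 below in clone A (24.7% and 11.1%), and 4 above and 2 below in clone B (24% and 8.06%). Between the WT groups 3 genes lay higher in 6694c2 and 6 lower without overlap (14.2% and 32.6%). Clone B lay above clone A for 4 genes and below it for 3 in 6419c5 (15.7% and 28.3%), and above for 3 and below for 2 in 6694c2 (25.1% and 13.8%).

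**Figure D1:**
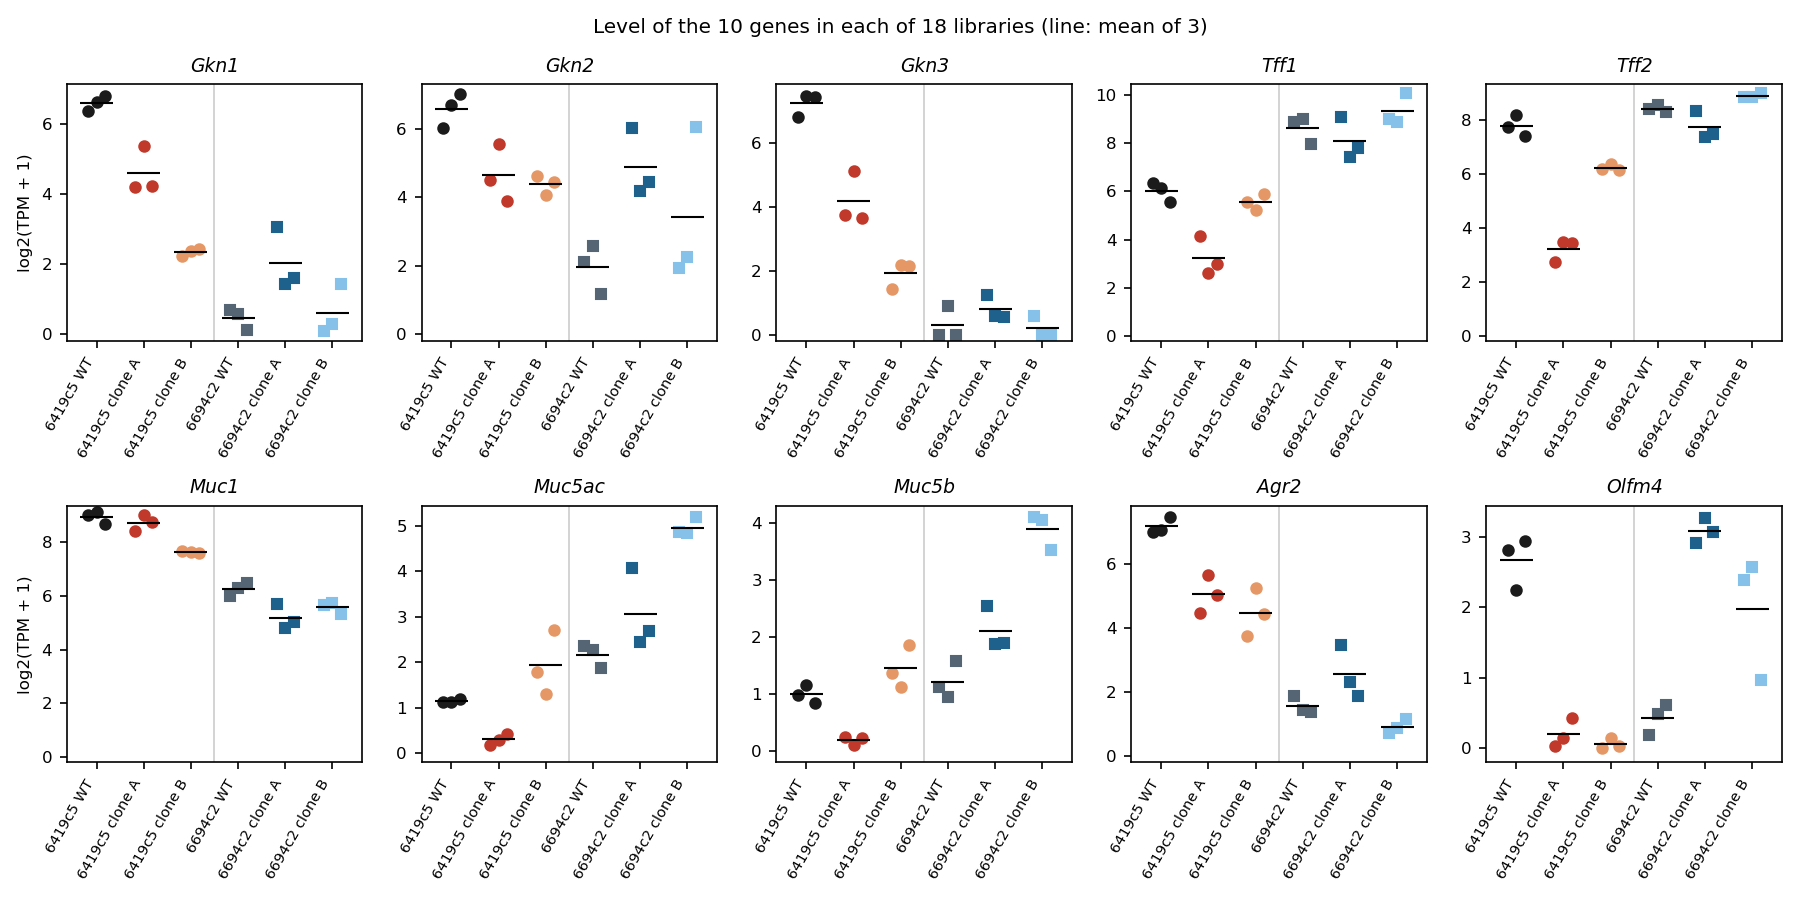
Level of each of the 10 genes as log2(TPM + 1) in the 18 libraries, by group; points are libraries and the short line is the mean of 3. Gkn1, Gkn3 and Agr2 are highest in WT 6419c5, Tff1 and Tff2 are high in all groups of 6694c2, and Muc5ac and Muc5b are highest in clone B of 6694c2.

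**Figure D2:**
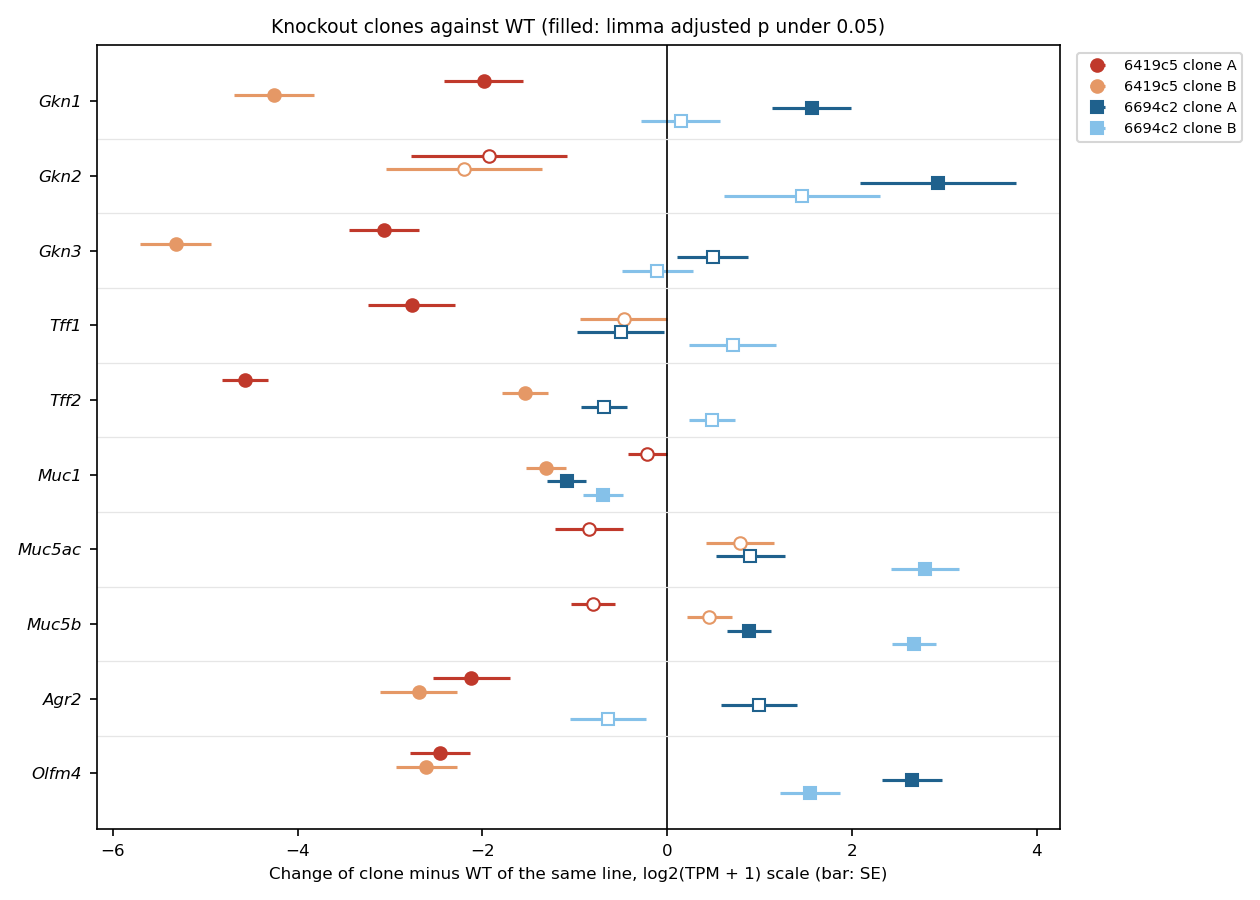
Change of each knockout clone against the WT libraries of its line, in log2(TPM + 1), with the standard error as the bar; filled points have a limma adjusted p under 0.05. In 6419c5 (circles) 6 genes fell in each clone, and in 6694c2 (squares) 4 rose in clone A, 3 rose in clone B and Muc1 fell in both.

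The 3 gastrokines lie next to each other on chromosome 6 (GRCm38): Gkn1 at 87345650 to 87350942 on the minus strand, Gkn2 at 87373357 to 87379497 on the plus strand and Gkn3 at 87383256 to 87388935 on the minus strand. Gkn1 stood at 81.6, 97.7 and 110.0 TPM in WT 6419c5, at 17.5, 40.7 and 17.8 TPM in clone A and at 3.67, 4.12 and 4.41 TPM in clone B. The 3 groups did not overlap, and they stepped down from WT through clone A to clone B. Against WT the change was -1.99 ± 0.43 (SE) in clone A (limma adjusted p = 0.0126) and -4.26 ± 0.43 in clone B (adjusted p = 1.07e-05). Clone B was lower than clone A by 2.27 ± 0.43 on the log2 scale (change -2.27, adjusted p = 0.00162), and with the macrophage covariate this difference was not called (-0.98, adjusted p = 0.238). The clone A call was lost without its replicate 1 (adjusted p = 0.0518), without its replicate 3 (0.0674) and with a pseudocount of 0.1 in place of 1 (0.192), within a range of 8.68e-04 to 0.192 over all settings.

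In 6694c2 Gkn1 was a minor transcript. WT had 0.620, 0.498 and 0.0767 TPM, clone A 7.29, 1.68 and 2.04 TPM and clone B 0.0693, 0.219 and 1.71 TPM. All 3 clone A libraries were above WT, with replicate 1 far above the other two, and clone B straddled WT. The rise in clone A was 1.56 ± 0.43 (adjusted p = 0.0179) and the change in clone B 0.15 ± 0.43 (adjusted p = 0.851). Without WT replicate 3 or clone A replicate 1 the clone A value was 1.39 or 1.05 (adjusted p = 0.0605 and 0.0822), and with the macrophage index as covariate 0.69 (0.269; 0.00974 to 0.269 over all settings).

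Gkn3, whose human counterpart is mostly a pseudogene, followed the same order in 6419c5. It stood at 111, 175 and 173 TPM in WT, at 12.5, 33.5 and 11.6 TPM in clone A and at 1.69, 3.49 and 3.45 TPM in clone B, without overlap between groups. The change from WT was -3.06 ± 0.38 in clone A (adjusted p = 1.55e-04) and -5.32 ± 0.38 in clone B (adjusted p = 4.81e-07), and clone B was lower than clone A (change -2.26 ± 0.38, adjusted p = 7.79e-04), a call that was lost with the macrophage covariate (-1.56, adjusted p = 0.0929). In WT 6419c5 Gkn3 was the most abundant gastrokine, at 153 ± 36.5 TPM (SD, n = 3) against 96.4 ± 14.2 TPM for Gkn1. In 6694c2 it was listed at 0 in 2 WT and 2 clone B libraries, the highest of the 9 libraries was 1.37 TPM, and neither clone was called (0.49 ± 0.38 and -0.11 ± 0.38). With a pseudocount of 0.1 the 6419c5 clone A call was lost (adjusted p = 0.0518, range 3.15e-05 to 0.0518).

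Gkn2, whose protein partners TFF1 in gastric mucus, behaved less uniformly. It stood at 64.2, 102 and 126 TPM in WT 6419c5, at 21.5, 45.8 and 13.7 TPM in clone A and at 23.3, 15.7 and 20.6 TPM in clone B. Every knockout library was below every WT library, yet the fit over all groups called neither clone (-1.93 ± 0.85, adjusted p = 0.274, and -2.20 ± 0.85, adjusted p = 0.0861). Both passed when only the groups of 6419c5 were fitted (adjusted p = 0.0409 and 0.0112) or when 6694c2 clone B replicate 3 was left out (0.0416 and 0.0083), and over all settings adjusted p ran from 0.0124 to 0.605 and from 0.0083 to 0.944. With the macrophage index as a covariate the values were -2.67 in clone A (adjusted p = 0.0124) and 0.09 in clone B (0.944). The index of clone B did not overlap that of WT, so the clone B value is an extrapolation.

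In 6694c2 Gkn2 was the one gastrokine above 10 TPM. WT had 3.27, 4.91 and 1.26 TPM, clone A 64.2, 17.1 and 20.5 TPM and clone B 2.79, 3.75 and 65.1 TPM. Clone A lay wholly above WT, while 2 of the 3 clone B libraries lay within the range of WT and the other held the highest Gkn2 value of the line. The change was 2.93 ± 0.85 in clone A (adjusted p = 0.0234) and 1.46 ± 0.85 in clone B (adjusted p = 0.267). Macrophage marker sums moved alongside: 731, 1887 and 295 TPM for WT, 6445, 3432 and 3982 TPM for clone A and 549, 562 and 3525 TPM for clone B. Fibroblast marker sums did too, at 156 to 273 TPM for WT, 733 to 1071 TPM for clone A and 130, 111 and 884 TPM for clone B, and the pair of libraries with most Gkn2, replicate 3 of clone B and replicate 1 of clone A, were high in both. Adding the macrophage index to the fit gave 0.88 for clone A (adjusted p = 0.401), an extrapolation, since the index of clone A did not overlap that of WT. The clone A rise also lost its call without WT replicate 3 (0.0768) or without clone A replicate 1 (0.101), with a range of 0.00102 to 0.401 over all settings. The part of macrophages and fibroblasts in the Gkn2 values was not tested beyond this covariate.

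**Figure D3:**
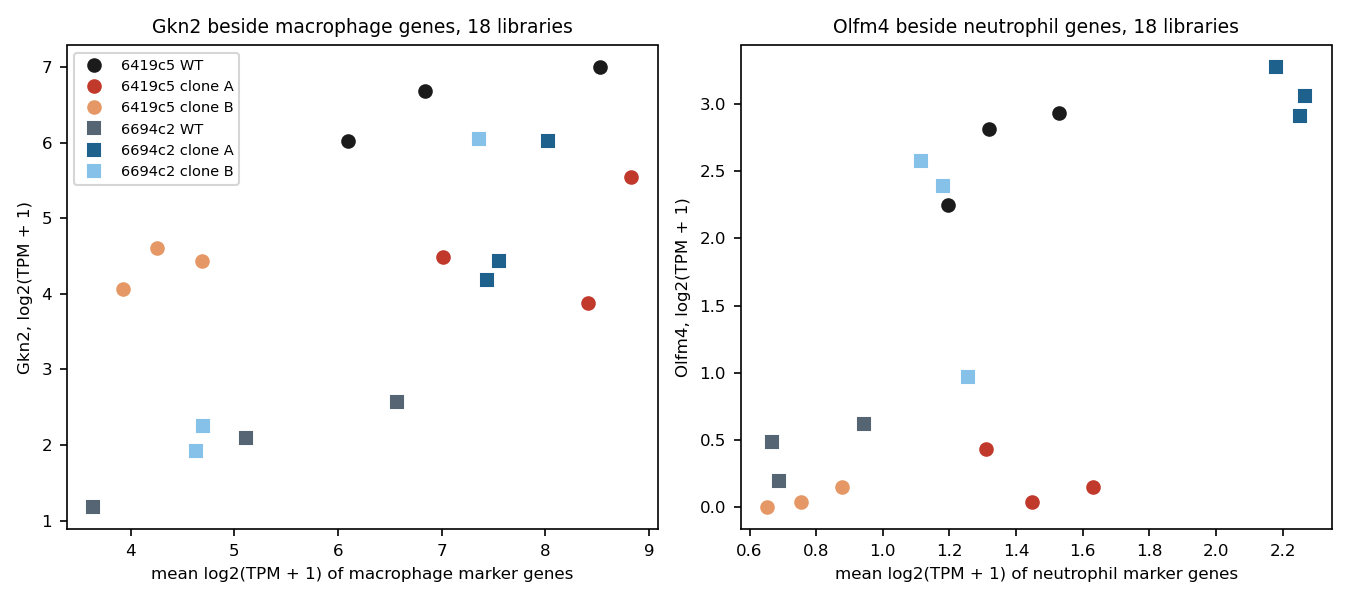
Left, Gkn2 against the mean log2(TPM + 1) of 10 macrophage markers, and right, Olfm4 against the mean log2(TPM + 1) of 12 neutrophil markers, for the 18 libraries coloured by group. The pair of 6694c2 libraries with most Gkn2 has high macrophage levels, while the 6419c5 clone B libraries hold 15.7 to 23.3 TPM of Gkn2 at macrophage sums of 377 to 603 TPM.

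The level of Gkn2 relative to Gkn1 differed between groups. The median ratio of Gkn2 to Gkn1 TPM was 1.04 for WT 6419c5, 1.12 for its clone A and 4.67 for its clone B, and for 6694c2 it was 9.86 for WT, 10.1 for clone A and 38.0 for clone B. The ratio ranges of WT and clone A overlapped in both lines, and those of clone B lay above them (3.82 to 6.34 and 17.1 to 40.2). In 6694c2 the WT ratio reached 16.5, close to the lowest of clone B. Gkn1 there was 0.0767 to 0.620 TPM in WT and 0.0693, 0.219 and 1.71 TPM in clone B. These ratios thus divide by values that are mostly under 1 TPM and uncertain. Gkn3 over Gkn1 was 1.36 to 1.79 in WT 6419c5 and 0.460 to 0.846 in its knockout libraries, without overlap.

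The promoter windows of the 3 gastrokines and of Agr2, whose levels ran beside those of Gkn1 and Gkn3, are shown to compare the neighbouring gastrokines, of which Gkn2 was not called in 6419c5, with a gene of another chromosome that fell beside Gkn1 and Gkn3. Each window is the 250 bases before the RefSeq start in GRCm38.p6, read 5′ to 3′ along the gene: chr6:87350916-87351165 (minus) for Gkn1, chr6:87373115-87373364 (plus) for Gkn2, chr6:87388936-87389185 (minus) for Gkn3 and chr12:35992675-35992924 (plus) for Agr2. Capitals mark the hexamer GATAAG, which is bound by the factors of the Gata family, its form on the opposite strand, written CTTATC, and the core promoter hexamer TATAAA.
Gkn1: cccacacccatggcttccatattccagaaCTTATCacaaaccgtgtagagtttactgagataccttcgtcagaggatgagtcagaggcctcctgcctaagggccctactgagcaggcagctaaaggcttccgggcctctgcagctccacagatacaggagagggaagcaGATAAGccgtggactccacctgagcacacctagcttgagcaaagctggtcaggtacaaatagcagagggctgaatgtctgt
Gkn2: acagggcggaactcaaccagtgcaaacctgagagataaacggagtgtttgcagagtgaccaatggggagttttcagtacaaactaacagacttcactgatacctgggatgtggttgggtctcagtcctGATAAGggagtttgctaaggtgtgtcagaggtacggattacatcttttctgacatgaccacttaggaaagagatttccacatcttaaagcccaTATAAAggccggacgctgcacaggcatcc
Gkn3: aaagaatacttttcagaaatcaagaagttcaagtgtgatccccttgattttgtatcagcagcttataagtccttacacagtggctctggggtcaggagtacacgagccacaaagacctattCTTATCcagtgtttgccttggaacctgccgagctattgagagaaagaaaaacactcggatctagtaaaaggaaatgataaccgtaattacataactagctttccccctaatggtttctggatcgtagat
Agr2: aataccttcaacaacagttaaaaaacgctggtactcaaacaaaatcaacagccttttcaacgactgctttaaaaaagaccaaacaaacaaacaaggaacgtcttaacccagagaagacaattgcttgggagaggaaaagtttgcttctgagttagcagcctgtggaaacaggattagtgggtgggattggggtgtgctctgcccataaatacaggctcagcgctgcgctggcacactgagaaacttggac

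GATAAG or its reverse was found in all 3 gastrokine windows, at -81 and on the reverse strand at -221 in Gkn1, at -122 in Gkn2 and on the reverse strand at -129 in Gkn3, where positions give the first base of the match relative to the start. It was not in those of Agr2, Muc1 or Olfm4, and 6.55% of 32851 RefSeq promoter windows of the same length hold it. TATAAA was in the window of Gkn2 at -29 and in that of Muc1 at -31, and 12.4% of windows hold it. The forkhead motif TGTTTAC, in 3.17% of windows, was in none of the 6 windows read, and CACCC, bound by KLF factors and present in 52.0% of windows, was in those of Gkn1, Agr2 and Olfm4. Every motif was searched on both strands, and no matches of different motifs overlapped. A match of letters is a description of the sequence, not a bound site.

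The trefoil factor genes are neighbours on chromosome 17, Tff2 at 31141049 to 31144282 and Tff1 at 31161395 to 31165277, both on the minus strand. Tff2 stood at 212, 296 and 169 TPM in WT 6419c5, at 5.68, 10.2 and 9.73 TPM in clone A and at 71.5, 82.2 and 71.0 TPM in clone B. No group overlapped another, and here clone A, not clone B, was the lowest. The change from WT was -4.57 ± 0.25 in clone A (adjusted p = 4.67e-08) and -1.54 ± 0.25 in clone B (adjusted p = 6.43e-04), and clone B was above clone A by 3.03 ± 0.25 (adjusted p = 2.28e-06).

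Tff1, whose peptide is coexpressed with MUC5AC in surface mucous cells, stood at 81.1, 68.5 and 46.7 TPM in WT 6419c5, at 16.6, 5.19 and 6.89 TPM in clone A and at 45.7, 35.9 and 58.4 TPM in clone B. Clone A was wholly below WT and clone B overlapped it. The change was -2.77 ± 0.47 in clone A (adjusted p = 0.0022) and -0.47 ± 0.47 in clone B (adjusted p = 0.568), and clone B was above clone A by 2.30 ± 0.47 (adjusted p = 0.00281). The trefoil factors and Gkn1 and Gkn3 put the knockout clones of 6419c5 in opposite orders: Gkn1 and Gkn3 were lower in clone B, a difference not called with the macrophage covariate, and Tff1 and Tff2 were lower in clone A. The macrophage index did not overlap between these clones, so the covariate cannot separate clone from macrophage level.

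In 6694c2 both trefoil factors were among the abundant transcripts. Tff1 stood at 471, 503 and 247 TPM in WT, at 548, 171 and 219 TPM in clone A and at 515, 467 and 1063 TPM in clone B, the last being the highest Tff1 value of the series. The groups overlapped and neither clone was called (-0.50 ± 0.47, adjusted p = 0.502, and 0.71 ± 0.47, adjusted p = 0.335). Tff2 stood at 338, 381 and 316 TPM in WT, at 325, 165 and 181 TPM in clone A and at 468, 463 and 516 TPM in clone B. Clone B lay above WT and clone A without overlap, but only the contrast with clone A was called (1.17 ± 0.25, adjusted p = 0.01, and 0.0507 without clone A replicate 3, range 0.00148 to 0.0507), the one with WT being 0.49 ± 0.25 (adjusted p = 0.206). For clone A against WT, Tff2 changed by -0.69 ± 0.25 (adjusted p = 0.0618), and it passed without clone A replicate 1 (-0.99, adjusted p = 0.00835) and under median-of-ratios scaling (-0.86, adjusted p = 0.0289), with a range of 0.00546 to 0.221.

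The median ratio of Tff1 to Tff2 TPM was 0.277 in WT 6419c5, 0.708 in its clone A and 0.639 in its clone B. WT libraries ran from 0.232 to 0.382 and did not overlap those of the clones. In 6694c2 the medians were 1.32, 1.21 and 1.10, and the 3 groups overlapped. Tff3, the intestinal trefoil factor at 31125306 to 31129646 beside Tff2, stayed low, with group means of 0.238 to 1.79 TPM.

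**Figure D4:**
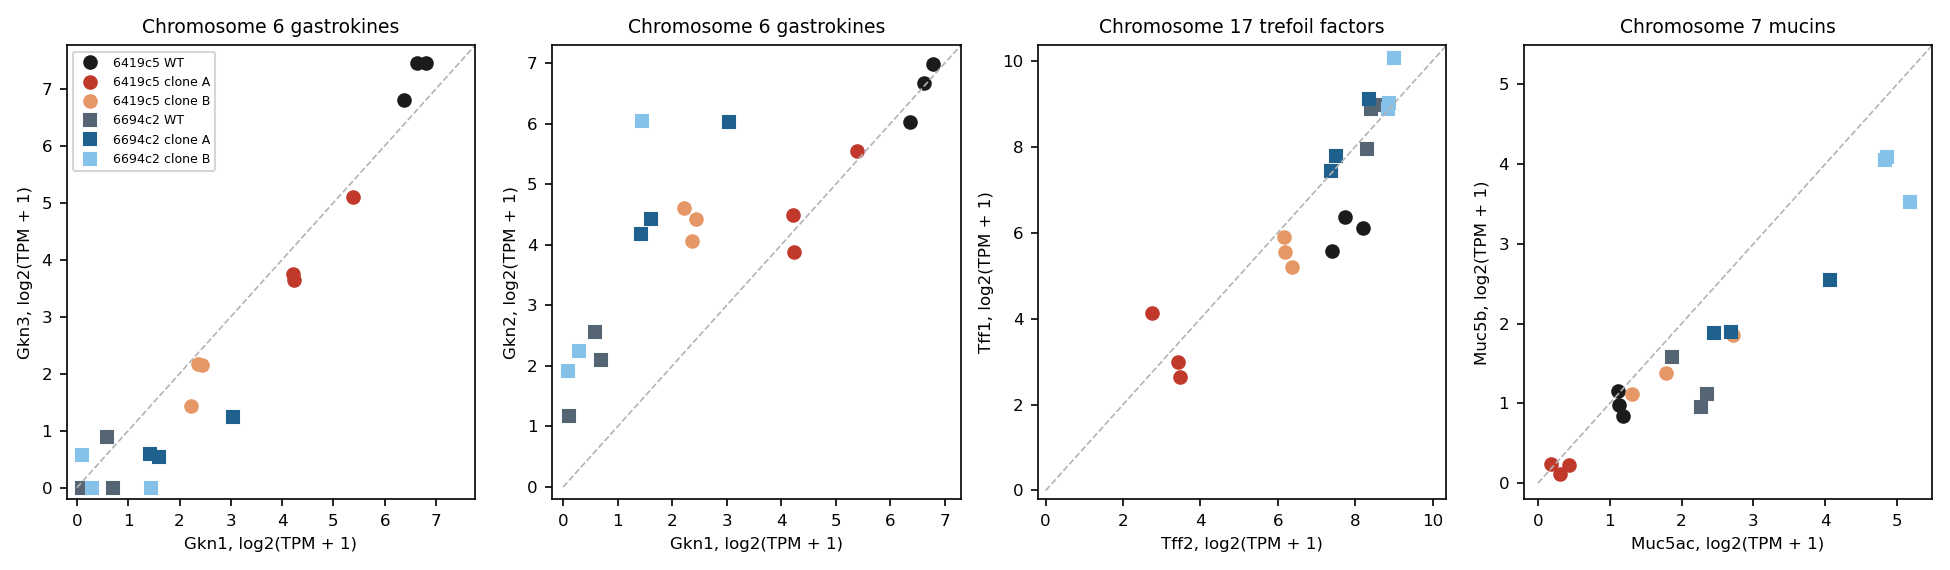
Levels of neighbouring genes against each other in log2(TPM + 1), 1 point per library: Gkn3 and Gkn2 against Gkn1, Tff1 against Tff2, and Muc5b against Muc5ac, with the dashed line marking equal levels. Gkn2 lies far above the line in 6694c2 and in clone B of 6419c5, and Tff1 lies below it in WT 6419c5.

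Muc1, a membrane-bound mucin carried by most glandular epithelia (chromosome 3, 89229057 to 89233381, plus strand), was the one gene of the set that fell in both lines. It stood at 517, 559.8 and 406 TPM in WT 6419c5, at 342, 510.4 and 431 TPM in clone A and at 201, 197 and 193 TPM in clone B. Clone A overlapped WT and clone B was wholly below both. The change was -0.21 ± 0.21 in clone A (adjusted p = 0.714) and -1.31 ± 0.21 in clone B (adjusted p = 7.26e-04), and clone B was lower than clone A (change -1.09 ± 0.21, adjusted p = 0.00204).

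Muc1 was lower in 6694c2 as a line, at 62.7, 78.5 and 89.0 TPM for WT, 51.4, 26.7 and 31.8 TPM for clone A and 49.5, 51.8 and 39.3 TPM for clone B. All 6 knockout libraries were below the 3 WT libraries. The change was -1.09 ± 0.21 in clone A (adjusted p = 0.00244) and -0.69 ± 0.21 in clone B (adjusted p = 0.042). The clone B call was weak: it was lost in 13 of the 30 alternative settings, among them without WT replicate 3 (-0.58, adjusted p = 0.0964) and without clone B replicate 3 (-0.58, adjusted p = 0.134), over a range of 0.0122 to 0.134.

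Muc5ac and Muc5b, gel-forming mucins of the gastric surface and of the airway and glands, are neighbours on the plus strand of chromosome 7 (141788972 to 141819231 and 141839070 to 141873084). In 6419c5 they were scarce. Muc5ac stood at 1.2, 1.17 and 1.28 TPM in WT, at 0.138, 0.232 and 0.346 TPM in clone A and at 2.46, 1.48 and 5.55 TPM in clone B. Muc5b stood at 0.976, 1.23 and 0.799 TPM in WT, at 0.182, 0.0792 and 0.168 TPM in clone A and at 1.6, 1.18 and 2.63 TPM in clone B. Both were lowest in all clone A libraries, and clone B was above clone A by 1.63 ± 0.37 for Muc5ac (adjusted p = 0.00496) and 1.26 ± 0.24 for Muc5b (adjusted p = 0.0018).

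Against WT neither mucin was called in clone A (-0.84 ± 0.37 for Muc5ac, adjusted p = 0.273, and -0.80 ± 0.24 for Muc5b, adjusted p = 0.08) or in clone B (0.79 ± 0.37, adjusted p = 0.159, and 0.46 ± 0.24, adjusted p = 0.215). With a pseudocount of 0.1, which weighs low TPM more, both passed in clone A (-2.0, adjusted p = 0.0215, and -2.19, adjusted p = 0.00192), where adjusted p ran from 0.0215 to 0.477 and from 0.00192 to 0.222 over the settings.

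In 6694c2 the same mucins were more abundant in the knockout clones. Muc5ac stood at 4.13, 3.82 and 2.66 TPM in WT, at 15.8, 4.45 and 5.46 TPM in clone A and at 28.0, 27.6 and 35.5 TPM in clone B. Muc5b stood at 1.17, 0.932 and 2.0 TPM in WT, at 4.85, 2.67 and 2.71 TPM in clone A and at 16.1, 15.6 and 10.5 TPM in clone B. For both genes the groups did not overlap, with WT lowest and clone B highest. In clone B the rise over WT was 2.79 ± 0.37 for Muc5ac (adjusted p = 1.05e-04) and 2.67 ± 0.24 for Muc5b (adjusted p = 2.06e-06). In clone A Muc5b rose by 0.89 ± 0.24 (adjusted p = 0.0173) and Muc5ac changed by 0.90 ± 0.37 (adjusted p = 0.0965). The Muc5b call in clone A was lost without WT replicate 1 (0.0507), WT replicate 2 (0.0642) or clone A replicate 1 (0.0797), and under quantile normalization (0.42, adjusted p = 0.219), with a range of 0.0109 to 0.219. Clone B was above clone A by 1.89 ± 0.37 for Muc5ac (adjusted p = 0.0067) and 1.79 ± 0.24 for Muc5b (adjusted p = 8.41e-04).

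Agr2 encodes a protein disulfide isomerase of the endoplasmic reticulum that secretory cells need to process mucins (chromosome 12, 35992907 to 36004087, plus strand). It stood at 125, 131 and 176 TPM in WT 6419c5, at 20.9, 49.2 and 31.7 TPM in clone A and at 12.3, 37.3 and 20.5 TPM in clone B. Both clones were wholly below WT and overlapped each other. The change was -2.12 ± 0.41 in clone A (adjusted p = 0.00634) and -2.69 ± 0.41 in clone B (adjusted p = 4.50e-04).

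In 6694c2 Agr2 was low, at 2.68, 1.69 and 1.59 TPM for WT, 10.1, 3.98 and 2.65 TPM for clone A and 0.654, 0.831 and 1.23 TPM for clone B. Clone B lay below WT and clone A overlapped it. Neither was called against WT (0.99 ± 0.41, adjusted p = 0.103, in clone A and -0.64 ± 0.41, adjusted p = 0.32, in clone B). The difference of clone B from clone A was -1.63 ± 0.41 (adjusted p = 0.0241). It was lost without clone A replicate 1 (-1.17, adjusted p = 0.0832), without clone A replicate 2 (0.05), without clone B replicate 1 (0.104), without clone B replicate 2 (0.0925) and with the macrophage covariate (-1.25, adjusted p = 0.2), over a range of 0.00909 to 0.2. In the group where Agr2 was lowest, 6694c2 clone B, Muc5ac and Muc5b were highest.

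Olfm4 encodes a secreted olfactomedin glycoprotein known from intestinal crypt stem cells and from neutrophil granules (chromosome 14, 79984081 to 80023139, plus strand). It stood at 6.03, 3.76 and 6.66 TPM in WT 6419c5, at 0.0267, 0.109 and 0.348 TPM in clone A, and at 0, 0.11 and 0.0253 TPM in clone B. Both clones were close to 0 in all 6 libraries. The change was -2.46 ± 0.33 in clone A (adjusted p = 2.73e-04) and -2.61 ± 0.33 in clone B (adjusted p = 7.49e-05), and with a pseudocount of 0.1 it was -4.57 and -5.3.

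The pattern of Olfm4 was inverted in 6694c2, where WT was low at 0.145, 0.398 and 0.537 TPM. Clone A had 6.51, 8.66 and 7.36 TPM and clone B 4.24, 4.95 and 0.952 TPM. Both clones were wholly above WT, by 2.65 ± 0.33 (adjusted p = 5.69e-05) and 1.54 ± 0.33 (adjusted p = 0.00527). Clone B was lower than clone A (change -1.11 ± 0.33, adjusted p = 0.0462), a call that 21 of 29 settings lost, among them without clone B replicate 3 (-0.6, adjusted p = 0.0881, range 0.0363 to 0.157). Neutrophil markers were also higher in the knockout libraries of 6694c2: the sum of 12 markers was 10.5 to 18.8 TPM for WT, 94.1 to 221 TPM for clone A and 28.0 to 36.4 TPM for clone B, led by S100a9 and S100a8. Some granule genes on that list, namely Mpo, Elane, Ngp and Camp, were each under 1 TPM in every group mean. Yet 5 of the 7 tested markers rose and none fell for 6694c2 clone A, and 1 rose and none fell for its clone B. In 6419c5 the sums were 32.7 to 46.6 TPM in WT and 34.4 to 50.6 TPM in clone A, where Olfm4 was near 0, and 8.74 to 20.8 TPM in clone B. The part of neutrophils in the Olfm4 levels was not tested.

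How far the knockout effect differed between lines (mean of both clones minus WT in 6694c2, less the same in 6419c5) was tested, and 8 of the 10 genes were called, all towards 6694c2, where 5.78% of tested genes were called in that direction and 2.93% in the other. It was 4.63 ± 0.40 for Olfm4 (adjusted p = 9.11e-06), 4.39 ± 0.47 for Gkn3 (5.78e-05), 4.26 ± 1.04 for Gkn2 (0.0201) and 3.98 ± 0.52 for Gkn1 (3.36e-04). Tff2 differed by 2.96 ± 0.30 (adjusted p = 4.14e-05), Agr2 by 2.58 ± 0.51 (0.00622), Muc5b by 1.95 ± 0.30 (0.00108) and Muc5ac by 1.87 ± 0.45 (0.0193). These p-values rest on the spread between libraries and leave out the spread between the 2 clones of a line. For Gkn1 clones A and B changed by -1.99 and -4.26 in 6419c5 and by 1.56 and 0.15 in 6694c2. Mean levels in WT 6694c2 were already low for Gkn3 (0.286 TPM), Olfm4 (0.360 TPM), Gkn1 (0.398 TPM), Agr2 (1.99 TPM) and Gkn2 (3.15 TPM). On the log2(TPM + 1) scale a fall as large as that in 6419c5 could not have been seen for these genes in 6694c2. Given those falls, of which that of Gkn2 (-2.06) was not called, some difference towards 6694c2 was fixed by the WT levels. For Muc1 the difference was -0.13 ± 0.26 (adjusted p = 0.807) and for Tff1 1.72 ± 0.58 (adjusted p = 0.0815, and 0.0393 without 6419c5 clone A replicate 1, range 0.0393 to 0.173). Averaged over the clones, 7 genes fell in 6419c5 and none rose (3.4% of tested genes fell and 3.97% rose), and in 6694c2 4 rose and Muc1 fell (14.7% rose and 5.79% fell). The Gkn2 difference lost its call without 6419c5 WT replicate 3 (4.05, adjusted p = 0.0581) and with the macrophage covariate (2.28, adjusted p = 0.0787, range 0.00382 to 0.0787). That of Muc5ac lost it with the same covariate (1.44, adjusted p = 0.0775) and under quantile normalization (1.43, adjusted p = 0.0727, range 0.00761 to 0.0775).

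The WT groups themselves stood apart before any knockout. Of the 10 genes 6 were lower in WT 6694c2 than in WT 6419c5 and 3 were higher, where 32.2% of tested genes were lower and 14.1% higher. The gastrokines and Agr2 were lower: the difference was -6.94 ± 0.38 for Gkn3 (adjusted p = 4.79e-09), -6.13 ± 0.43 for Gkn1 (4.92e-08), -5.60 ± 0.41 for Agr2 (8.40e-08) and -4.62 ± 0.85 for Gkn2 (4.30e-04). Muc1 (-2.67 ± 0.21, adjusted p = 1.76e-07) and Olfm4 (-2.23 ± 0.33, 5.79e-05) were lower too. Tff1 was higher in WT 6694c2 by 2.59 ± 0.47 (adjusted p = 4.21e-04), Muc5ac by 1.02 ± 0.37 (0.0348) and Tff2 by 0.64 ± 0.25 (0.046), the last 2 calls being lost in 6 and 17 settings (adjusted p 0.00676 to 0.0993 and 0.015 to 0.193), among them without WT replicate 1 of either line. Muc5b did not pass (0.22 ± 0.24, adjusted p = 0.481). WT 6419c5 thus held gastrokines, trefoil factors, Muc1 and Agr2 at means of 65.4 TPM or more with Muc5ac at 1.22 ± 0.056 TPM (SD, n = 3), and WT 6694c2 held the trefoil factors with few gastrokine transcripts.

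Between the knockout clones of a line, 4 of the 10 genes were higher in clone B than in clone A of 6419c5 (Tff1, Tff2, Muc5ac and Muc5b) and 3 lower (Gkn1, Gkn3 and Muc1), where 7.38% of tested genes were higher and 18.9% lower. In 6694c2 3 were higher in clone B (Tff2, Muc5ac and Muc5b) and 2 lower (Agr2 and Olfm4), where 5.27% were higher and 4.26% lower. Tff2, Muc5ac and Muc5b were thus higher in clone B in each line, by values already given. No label ties the clones of 1 line to those of the other, so the shared letter makes them no replicates. Macrophage marker sums differed between the clones as well, at 2494 to 8431 TPM in clone A, and 377 to 603 TPM in clone B of 6419c5. In 6694c2 these sums were 3432 to 6445 TPM in clone A and 549, 562 and 3525 TPM in clone B. With the macrophage index as a covariate the 6419c5 count was 4 in place of 7, with Gkn1 at -0.98 (adjusted p = 0.238), Gkn3 at -1.56 (0.0929) and Muc5b at 0.81 (0.16) no longer called. These values are extrapolations, since the index did not overlap between the clones of 6419c5. The 6694c2 count dropped from 5 to 3 without clone A replicate 3 or without clone B replicate 1.

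Across the 18 libraries the 10 genes fell into a few patterns, described here by Pearson's r of log2(TPM + 1). Gkn1 ran with Gkn3 (r = 0.968) and Agr2 (r = 0.949) and less closely with Gkn2 (r = 0.813). Muc5ac ran with Muc5b (r = 0.960) and Tff1 with Tff2 (r = 0.902). Gkn1 and Muc5ac ran in opposite directions (r = -0.64), and Olfm4 was nearly unrelated to Agr2 (r = 0.0098). The libraries share groups and lines, so they are not independent points. Among all tested genes the most like Gkn3 was Liph (r = 0.978), which encodes a membrane-associated phospholipase, followed by Cdcp1 (0.972) and Creb3l4 (0.969). The most like Gkn1 were Tmed6 (r = 0.970), Liph (0.958) and Creb3l4 (0.953), where Creb3l4 encodes a membrane-bound transcription factor of the endoplasmic reticulum. The most like Agr2 was Ceacam1 (r = 0.966), the most like Tff2 was En1 (r = 0.959), and the most like Tff1 was Ybx1 (r = 0.955). Tjp3, a tight junction scaffold gene, was the most like Muc1 (r = 0.994), and Kirrel3 the most like both Muc5ac (r = 0.945) and Muc5b (r = 0.923). Olfm4 and Gkn2 had no close match, with at most r = 0.853 for Ccl25 and 0.894 for Mcf2l.

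Other genes of gastric mucous cells were called less often than the 10 in 6419c5, a difference that was not tested. Of 16 such genes 10 were tested, and over the clones 2 fell in 6419c5 and 3 fell in 6694c2, with none rising (2 and 0 at an unadjusted p under 0.05) and median changes of -0.20 and -0.05, where the medians of all tested genes were 0.01 and 0.15. Pgc, the pepsinogen C precursor, had group means of 34.1 ± 3.39, 25.9 ± 8.41 and 3.92 ± 0.855 TPM (SD, n = 3) in WT, clone A and clone B of 6419c5 and fell by 1.63 over the clones (change -1.63, adjusted p = 8.50e-05). In the 6694c2 groups its means were 0.648 to 0.820 TPM. Ctse, encoding the gastric protease cathepsin E, fell in both lines (-0.49, adjusted p = 0.0397, and -0.73, adjusted p = 0.00161). Wfdc2 and Anxa10 fell in 6694c2 (-0.52, adjusted p = 0.0035, and -0.83, adjusted p = 0.0198), while Wfdc2 kept 573 TPM or more in every group mean. Of 10 other mucins 2 were tested, and Muc4, a membrane mucin, fell in 6419c5 (-0.99, adjusted p = 0.00547), where it had 3.51 ± 0.321 TPM in WT and 0.375 ± 0.00795 TPM in clone B (SD, n = 3).

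Of the machinery of mucous secretion 6 of 11 tested genes fell in 6419c5 and none rose (1 at an unadjusted p under 0.05), with a median change of -0.41, against 2 that fell and 1 that rose in 6694c2 (median 0.03). Spdef, the transcription factor of goblet and mucous cell maturation, had 11.0 ± 0.895 TPM for WT, 3.40 ± 0.244 TPM for clone A and 0.367 ± 0.203 TPM for clone B of 6419c5 (SD, n = 3), a change of -2.30 over the clones (adjusted p = 6.21e-07). Ern2, the stress sensor of mucous cells, fell by 1.5 (change -1.5, adjusted p = 0.00392) and Creb3l4 by 1.13 (change -1.13, adjusted p = 2.88e-04). In 6694c2 Spdef was at 0.160 to 0.658 TPM in the group means and was not called (-0.44, adjusted p = 0.074). Foxa3 fell in both lines (-0.69, adjusted p = 0.019, and -1.01, adjusted p = 6.55e-04), and Creb3l1 rose in 6694c2 (1.05, adjusted p = 0.00156). The difference between lines was called for 3 of the 11, all towards 6694c2: Spdef (1.86, adjusted p = 2.42e-04), Creb3l1 (1.46, 0.00452) and Creb3l4 (1.25, 0.00307).

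Of 17 tested enzymes that add sugars to mucins 3 fell and 1 rose in 6419c5, and 6 fell and 1 rose in 6694c2, with medians of -0.19 and 0.02. Fut2, the secretor fucosyltransferase, fell in both (-1.17, adjusted p = 0.00208, and -1.36, adjusted p = 3.07e-04), and so did Galnt12, which starts O-linked chains (-1.52, adjusted p = 3.00e-06, and -0.89, adjusted p = 2.30e-04). Gcnt3, the core-branching enzyme of mucin-type glycans, fell in 6694c2 (-1.48, adjusted p = 4.07e-04), where WT had 7.63 ± 1.55 TPM and clone B 1.61 ± 0.872 TPM (SD, n = 3). Galnt7 fell in 6419c5 (-0.97, adjusted p = 0.00439).

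Among 18 tested transcription factors of the gastric and foregut epithelium, 4 fell and 1 rose in 6419c5 and 5 fell in 6694c2, with medians of -0.10 and -0.14. Foxa1, a pioneer factor of foregut epithelia, had 5.68 ± 0.648 TPM for WT, 0.118 ± 0.0566 TPM for clone A and 0.548 ± 0.174 TPM for clone B of 6419c5 (SD, n = 3), a change of -2.34 (adjusted p = 4.61e-06), and in 6694c2 its group means were 2.02 to 2.58 TPM (change -0.04, adjusted p = 0.909). The difference between lines was called for it (2.30, adjusted p = 2.76e-04). Elf3 and Klf5, epithelial factors, fell in both lines (Elf3 -1.09, adjusted p = 1.43e-04, and -0.85, adjusted p = 6.07e-04, and Klf5 -0.60, adjusted p = 6.65e-05, and -0.70, adjusted p = 5.75e-06). Sox9 fell in 6419c5 (-0.78, adjusted p = 0.0022) and Gata4 rose there (0.41, adjusted p = 0.0119). Barx1, a stomach mesenchyme factor, and Cdx1, an intestinal one, were listed at 0 in every library. Of 5 tested genes on the crypt stem cell list limma called none in 6419c5 (1 at an unadjusted p under 0.05). In 6694c2 Lyz1, a lysozyme gene on that list, rose (2.5, adjusted p = 0.0344) and Prom1 fell (-1.46, adjusted p = 0.00299). Macrophage markers, led by Lyz2, also rose in clone A of 6694c2 (8 of 10), and the part of macrophages in the Lyz1 value was not tested.

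**Figure D5:**
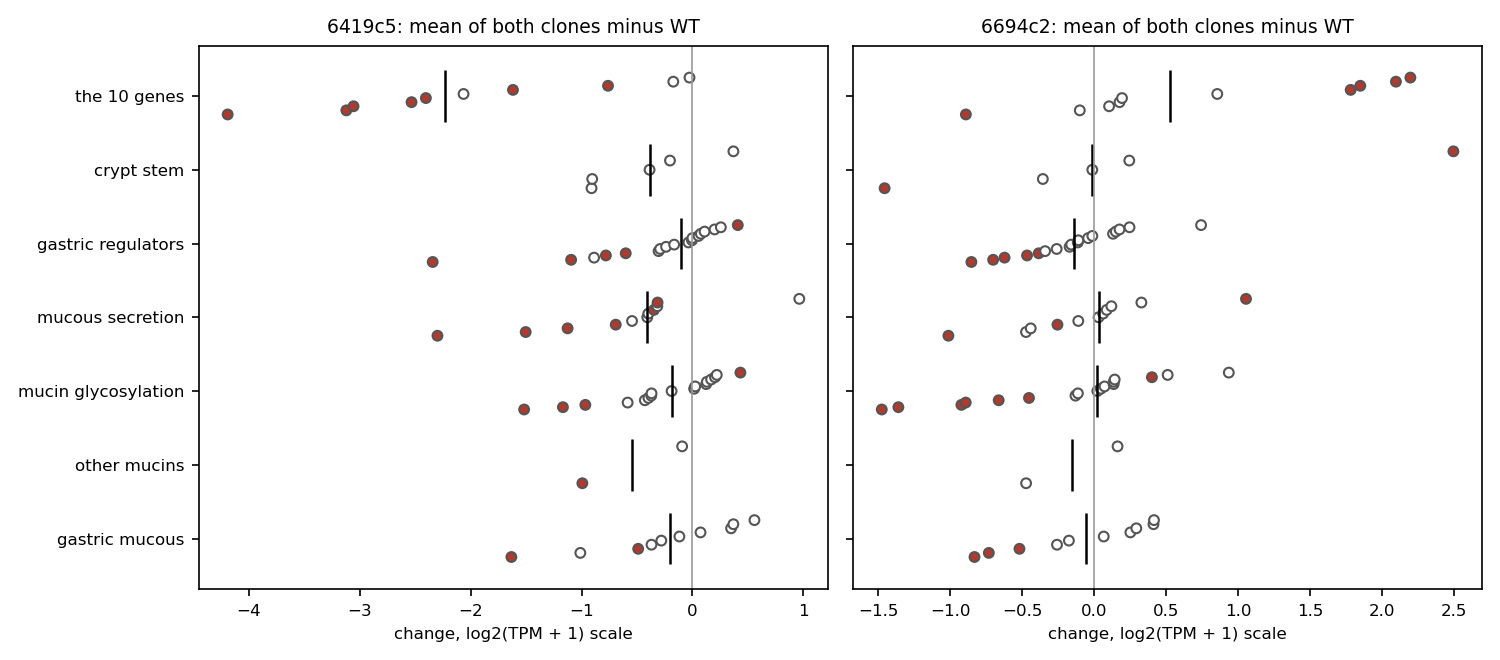
Change over both clones of a line (log2(TPM + 1) scale; left 6419c5, right 6694c2, with different axis ranges) for the tested genes of each list; filled points have a limma adjusted p under 0.05 and the vertical bar is the list's median. The 10 genes spread to lower values in 6419c5 (median -2.23) than any of the other lists, whose medians lay between -0.54 and -0.10 there. The 10 genes and the lists were chosen with earlier results of these data known.

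Of 26 other genes of the table that start within 100 kb of one of the 10, 19 were tested, and over the clones limma called none in 6419c5 (3 higher and 3 lower at an unadjusted p under 0.05), with a median change of 0.05. Against WT none of the 19 was called in clone A of 6419c5, and in clone B Antxr1 (0.88, adjusted p = 0.00365) and Fam189b (0.39, adjusted p = 0.0173) rose and Efna1 (-0.47, adjusted p = 0.00281) and Abcg1 (-2.0, adjusted p = 0.0263) fell. Between these clones 2 were higher and 4 lower in clone B. Over the clones of 6694c2 4 rose and none fell, with a median of 0.23. They were Antxr1 beside the gastrokines (1.21, adjusted p = 7.29e-05), Tspan13 beside Agr2 (0.71, adjusted p = 0.0337), and Pklr and Thbs3 near Muc1 (0.51 and 0.41). Antxr1, which encodes an anthrax toxin receptor, had group means of 19.7 ± 5.33 TPM for WT, 47.4 ± 3.90 TPM for clone A and 45.5 ± 9.94 TPM for clone B of 6694c2 (SD, n = 3), and of 32.2 to 59.6 TPM in 6419c5. Bmp10, on the other side of the gastrokines, was listed at 0 in every library.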

How the data were processed

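The deposited table gives TPM per gene symbol, computed by the authors with Salmon against the mouse build mm10, per the submitters' processing notes. The Salmon version, the annotation and the summing of transcripts to genes are not given in the sources used here. Its name holds the word batch, which no label explains, and any adjustment of TPM between batches is unknown. Clones carry letters in the columns and numbers in the titles; clone A was read as KO1 and clone B as KO2, a choice that touches names alone.

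Genes averaging 1 TPM or more over the libraries (13422) were tested. Their log2(TPM + 1) was fitted as 6 group means (12 residual degrees of freedom) with limma 3.58.1 in R 4.3.3, with a mean-variance trend. Tests were two-sided, with Benjamini-Hochberg adjustment over all tested genes within each of the 10 contrasts. The fit was tested on simulated data. Of each companion list, up to 4 genes with the largest change among those called over the clones of either line were named, with genes listed at 0 throughout; of marker lists the 2 most abundant; and for each of the 10 genes up to 3 genes with the highest r. Some other markers and gene values were added for context. The 10 genes and all lists were chosen with earlier results of these data known. The macrophage index is the mean log2(TPM + 1) of 10 markers. Positions are from GENCODE M21, in which 23980 of the 24493 symbols were found, and promoters from RefSeq (GRCm38.p6), whose starts can differ from those of GENCODE; 6 of the 10 genes matched a promoter. Alternatives were other pseudocounts, filters, scalings, fits, a macrophage covariate, a replicate block and leaving out libraries. Every number of a library is limited by its unknown depth.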

Additional observations from a re-analysis of the deposited data

Results flagged for a closer look

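For 8 of the 10 genes the knockout effect differed between the lines by a test of the difference itself (limma, mean of both clones minus WT in 6694c2 less that in 6419c5, Benjamini-Hochberg adjusted p under 0.05 over 13422 genes). The test rests on the spread between libraries and leaves out the spread between the 2 clones of a line. The differences on the log2(TPM + 1) scale were 4.63 for Olfm4, 4.39 for Gkn3, 4.26 for Gkn2, 3.98 for Gkn1, 2.96 for Tff2, 2.58 for Agr2, 1.95 for Muc5b and 1.87 for Muc5ac. Olfm4 is the gene for which all 6 knockout libraries lay below WT in 6419c5 and all 6 lay above WT in 6694c2. For Gkn1, Gkn3, Tff2 and Agr2 the difference came with a fall in 6419c5 and no call over the clones in 6694c2. The low WT levels of Gkn1, Gkn2, Gkn3 and Agr2 in 6694c2 left limited room for a fall there. For Muc5ac and Muc5b the difference came with a rise in 6694c2 and no call over the clones in 6419c5. For Gkn2 it came with changes of opposite sign, 2.20 over the clones of 6694c2 and -2.06 over those of 6419c5. The first was a call lost in 21 of 30 settings, and the second was not called (limma adjusted p = 0.115).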

How the results depend on the processing

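Of 84 changes of the 10 genes, 62 of them called, 2482 values were computed under 30 alternative settings: 2334 kept their direction and side of the threshold, 119 kept the direction but lost the call, 20 gained a call and 9 changed sign. All 9 were changes that had not been called: Gkn1 in 6694c2 clone B was -0.0458 under quantile normalization, -0.00916 with the macrophage covariate, -0.27 without the 3 libraries that stood apart, -0.03 without WT replicate 3 and -0.27 without clone B replicate 3 (-0.27 to 0.401 over single libraries), Gkn3 there was 0.19 without WT replicate 2 (-0.298 to 0.192), Gkn2 in 6419c5 clone B was 0.0947 and Muc5b between the WT groups -0.0237 with the macrophage covariate, and the Muc1 difference between lines was 0.00567 without 6419c5 WT replicate 3. With a mean of at least 5 TPM, where Muc5b and Olfm4 are not tested, 3 genes were called in 6694c2 clone A in place of 5, 2 in clone B in place of 4, 3 over both clones in place of 5 and 3 between the clones in place of 5. Clone A of 6694c2 had 3 calls under quantile normalization, 3 with the macrophage covariate and 2 when only its line was fitted, and the contrast of its clones 3 when only the line was fitted. The contrast of the 6419c5 clones had 4 calls with the macrophage covariate in place of 7. The cause was not tested. Leaving out each library in turn gave 5 to 7 calls in 6419c5 clone A, 6 to 7 in clone B, 3 to 6 in 6694c2 clone A, 3 to 4 in clone B, 5 to 8 and 4 to 5 over the clones of 6419c5 and 6694c2, 7 to 9 for the difference between lines, 7 to 9 between the WT groups, 7 in each case between the 6419c5 clones and 3 to 6 between the 6694c2 clones. Gkn2 over the clones of 6694c2 (2.20, adjusted p = 0.0472) lost its call in 21 settings, and Muc1 and Tff1 over the clones of 6419c5 without WT replicate 1 (adjusted p = 0.0827 and 0.114) or WT replicate 2 (0.107 and 0.0925), and Tff1 also without clone A replicate 2 (0.0517), clone A replicate 3 (0.0559) or clone B replicate 2 (0.0508). Scaling by median of ratios moved the median change of all genes from 0.11 to -0.04 in 6694c2 clone A, from 0.18 to -0.02 in clone B and from -0.22 to -0.02 between the WT groups. Mir6236 alone held 6.04 to 17.4% of the TPM of a library. In 6694c2 it held 8.57, 13.1 and 17.4% in WT, 6.04 to 7.27% in clone A and 6.44 to 9.57% in clone B. Its part in these shifts was not tested.

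The replicate numbers are shared between groups, and same-numbered libraries deviated together (correlation over 0.1) in 15 of 45 pairs (correlations -0.39 to 0.48). Pairs with different numbers were not compared, so this cannot settle whether the number pairs libraries. With a replicate block 4 calls were lost: Muc1 in 6694c2 clone B (adjusted p = 0.0613), Gkn2 over the 6694c2 clones (0.0684), Tff2 between the WT groups (0.0598) and Olfm4 between the 6694c2 clones (0.0681), and the counts became 3, 4, 8 and 4 in place of 4, 5, 9 and 5. TPM keep no read numbers, so no counting error can be given, and values under about 1 TPM are the least certain.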
